A study of Bos indicus with 11 samples.

Results

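HOX genes encode homeodomain transcription factors that lie in clusters A, B, C and D and are numbered by paralog group, so that HOXA9, HOXB9 and HOXD9 are copies of 1 ancestral gene at matching places in different clusters. They were taken from the deposited table as the rows whose gene symbol is HOX, a cluster letter and a number, which gave 31 of the 24616 rows: 10 HOXA, 6 HOXB, 8 HOXC and 7 HOXD genes. A bovine gene reference of another assembly lists 39 such symbols. Of these, 31 were members and HOXD13 stands in the table under a joint symbol with a second locus. The remaining 7 (HOXA6, HOXB5, HOXB6, HOXB8, HOXB13, HOXC10 and HOXD8) had no row under their symbol and were not analysed here.

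Within a cluster, genes of low number are expressed towards the head of the embryo and genes of high number towards the tail, and the combination expressed in a tissue, the HOX code, is largely kept in the adult. In the female tract the posterior HOXA genes lie in order along the Müllerian duct. HOXA9 marks the oviduct, HOXA10 the uterus, HOXA11 the lower uterus and cervix and HOXA13 the vagina. In the adult uterus HOXA10 and HOXA11 are expressed in endometrium and myometrium, respond to ovarian steroids, and are needed for implantation in the mouse.

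Expression was measured in endometrial biopsies of healthy, multiparous Nelore cows (Bos indicus) that had been synchronized, inseminated at detected estrus and biopsied on day 6 after AI, in the horn opposite the corpus luteum. The cows were assigned to the pregnant (P, n = 6) or the non-pregnant (NP, n = 5) group from the outcome on day 30. The groups thus share breed, treatment and day and differ in the later result. Cow P617 was placed by its sample label, pregnant, while a supplement of the paper names this cow non-pregnant. Each cow gave 1 biopsy, and the p-values below judge a difference or slope against the variation among these cows. Values are normalized counts, that is reads per gene divided by 1 size factor per cow, and are not per length, so that levels are compared between cows and not between genes. The depth was 9290949 to 13508711 reads on genes in P cows and 9783673 to 13569085 in NP cows.

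The biopsies held several tissues in unequal amounts. Marker scores are given here as the mean of log2(normalized count + 1) over the markers of a tissue. Of the 14 epithelium markers, 13 were found, all with reads in 11 cows, and EPCAM ranged from 269 to 4719 normalized counts. Of the 10 stroma markers 9 were found, and of the 12 smooth muscle markers 9, again with reads in every cow, and MYH11 ranged from 6772.5 to 98540.5. Cow P617 had the lowest epithelium score (7.05) and the highest smooth muscle score (14.36), followed in both by cow P1541 (8.76 and 13.92). The epithelium score of the other cows was 9.23 to 10.56. The smooth muscle score was 12.78 ± 1.13 (SD, n = 6) in P and 11.51 ± 1.18 (SD, n = 5) among NP cows. The stroma score was 13.45 ± 0.63 and 14.03 ± 0.15. Results that rest on cows P617 and P1541 are given with and without them. In such bulk samples fewer cells of a type and less RNA per cell cannot be told apart.

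The HOX code of these biopsies of mixed tissue held 24 of the 31 members. A gene was counted as expressed with a mean of at least 5 normalized counts and a read in each of the 11 cows. It comprised 10 of 10 HOXA, 5 of 6 HOXB, 3 of 8 HOXC and 6 of 7 HOXD genes. A mean of at least 100 was reached by 16 genes, namely 6 HOXA, 5 HOXB and 5 HOXD genes and 0 HOXC genes. The HOXC cluster thus had the smallest share of its members expressed, namely HOXC4, HOXC6 and HOXC11, with means of 9.93, 20.6 and 40.5. For HOXC11 the median was 15.3, with 274.5 in cow P617. Both limits are on counts that are not per length. By paralog group, each member of groups 2, 3, 4, 6, 7, 10 and 11 was expressed. In group 9 the exception was HOXC9, in group 5 HOXC5, in group 1 HOXB1 and in group 13 HOXC13, and 0 members of groups 8 and 12 were expressed. Groups 6 and 8 each held only 1 member, HOXC6 and HOXC8, since HOXA6, HOXB6, HOXB8 and HOXD8 had no row.

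The 7 genes under the limit were HOXB1, HOXC5, HOXC8, HOXC9, HOXC12, HOXC13 and HOXD12. HOXB1, which patterns the hindbrain, and HOXC12 had 0 reads in all 11 cows. HOXC9 had up to 8 reads, in 8 cows. HOXC13, known from hair and nail, had 6 reads in cow P617 (6.78 normalized counts) and 0 in the others. HOXD13, under its joint symbol, had at most 4 reads in a cow. Beyond group 11 only HOXA13 met the limit, which is on counts that are not per length, and HOXB13 had no row. HOXC5, HOXC8 and HOXD12 had 1 to 3 reads in their highest cows. For HOXB1 and HOXC12 a count of 0 allows up to 3 reads per library, so that both were not detectable at this depth.

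**Figure D1:**
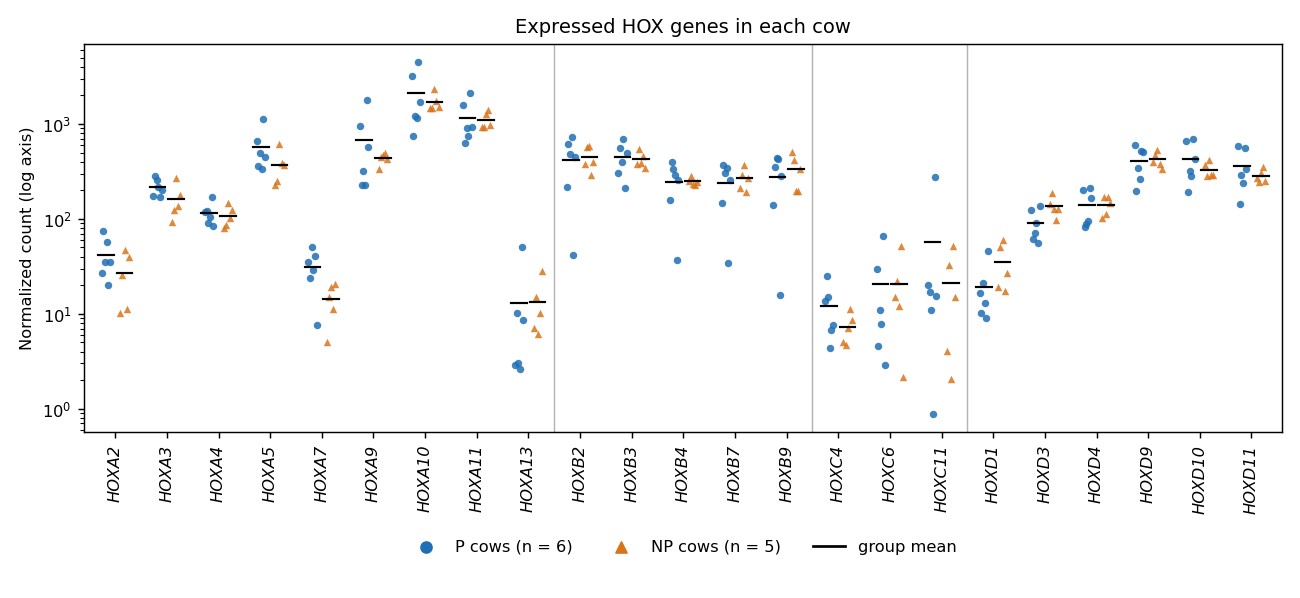
Normalized count (log axis) of 23 of the 24 expressed HOX genes in each of 6 P cows (circles) and 5 NP cows (triangles), with a line at the group mean and gray lines between clusters A, B, C and D. HOXA10 reaches 4529.9 in cow P617, the HOXB genes have their lowest point in this cow, and the groups overlap in every gene.

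The genes of the Müllerian axis were all expressed, with HOXA13 in few reads. HOXA10 had a lowest, median and highest value of 746, 1465 and 4529.9 in P cows and values of 1454, 1475, 2335, 1759 and 1511 in cows NP238, NP2541, NP2810, NP638 and NP856. HOXA11 had 628, 913 and 2099 in P cows, and 917, 934, 1264, 1406 and 981 in the NP cows in the same order. For both genes the P cows spanned the NP cows on either side, with P617 and P1541 as the 2 highest cows. HOXA9 had 225, 446 and 1777 in P cows and 332, 449, 474, 492 and 427 in NP cows. HOXA13 had 2.63, 5.82 and 50.8 in P cows and 7.08, 14.9, 6.12, 10.1 and 28 in NP cows. HOXA13 rested on 3 to 45 reads per cow. Its 2 highest cows were P617 and NP856, from different groups.

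The HOXB genes, which the textbook axis of the Müllerian duct does not include, varied in the opposite way. HOXB2, a gene of the hindbrain and branchial region in the embryo, had 41.8, 469 and 720 in P cows and 378, 571, 586, 292 and 399 in NP cows. HOXB3 had 210.1, 445 and 700 in P cows and 381, 548, 387, 462 and 342 in NP cows. HOXB9, chosen for description after its values were seen, had 15.8, 316 and 439 in P cows and 506, 420, 198, 195 and 338 in NP cows. In these 3 genes, and in HOXB4 and HOXB7, the lowest cow was P617. From the lowest to the highest cow HOXB9 spanned 32-fold and HOXB3 3.33-fold.

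In the HOXC cluster HOXC6 had 2.87, 9.47 and 66.6 in P cows and 15.2, 22, 12.2, 51.7 and 2.15 in NP cows. HOXC11, which acts with HOXA11 and HOXD11 in the kidney, had 0.875, 16.2 and 274 in P cows and 4.05, 32.9, 2.04, 51.7 and 15.1 in NP cows. Both were highest in P617 and, within NP, in NP638, the NP cow with the highest smooth muscle score (13.28). The lowest HOXC11 value was 1 read.

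In the HOXD cluster HOXD9 had 199, 422 and 596 in P cows and 394, 475, 536, 378 and 339 in NP cows. HOXD10 had 190, 372 and 700 in P cows and 371, 285, 420, 291 and 287 in NP cows. The highest cows were P1541 for HOXD9 and P617 for HOXD10, and P1631 was the lowest for both. HOXD3 had 55.4, 80.8 and 136 in P cows and 143, 186, 127, 96.4 and 128 in NP cows. For HOXD3 4 of the 6 P cows lay below each NP cow, while P904 and P1541 lay among them.

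**Figure D2:**
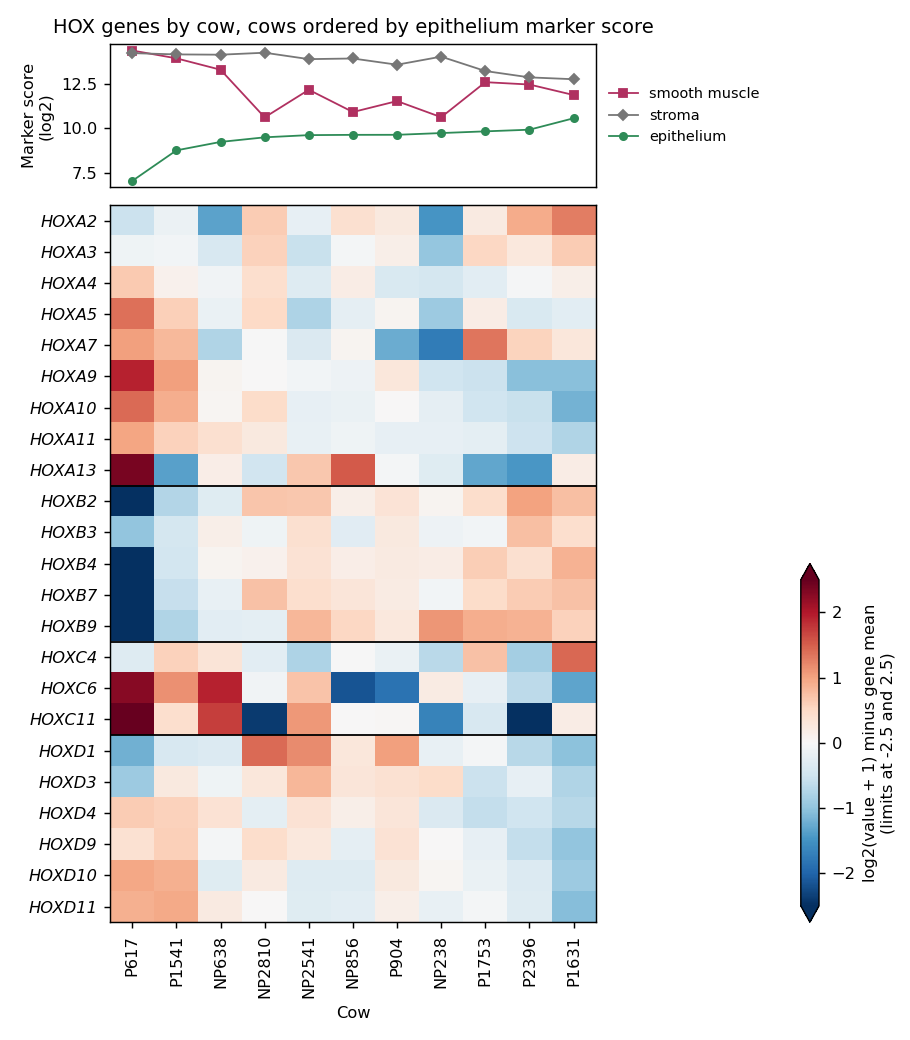
Deviation of log2(normalized count + 1) from the gene's mean over 11 cows for 23 of the 24 expressed HOX genes (rows, by cluster), with cows ordered by their epithelium score and the scores of smooth muscle, stroma and epithelium above. HOXA9, HOXA10, HOXA11, HOXD10 and HOXD11 are high in cows P617 and P1541 on the left and low in P1631 on the right, while the 5 HOXB genes run the other way.

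Cow P617 was the lowest cow in 8 of the 24 genes, among them 5 of 5 HOXB genes, against 27.3% of all 15081 genes tested. It was the highest cow in 10 of 24, against 26% of all genes. The highest cow was P617 or P1541 in 12 of 24 HOX genes, against 34.5% of all genes, and in 0 of 5 HOXB genes.

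The first question was whether the HOX code differed on day 6 between cows that were later found pregnant and those that were not. No HOX gene did so past the threshold. With limma on log2(normalized count + 1), an adjusted p-value (Benjamini-Hochberg over 15081 genes) under 0.1 was found for 0 of 24 HOX genes and for 0% of all genes. Both count tests on the recovered reads, edgeR and DESeq2, called 0 of 24 HOX genes, and DESeq2 called 1.33% of all genes. In each of the 24 genes the values of P and NP cows overlapped, as they did in all but 1.09% of the genes tested. Unadjusted, limma gave a p-value under 0.05 for 1 HOX gene, higher in NP cows, against 7.84% of all genes (5.49% higher in NP and 2.35% higher in P cows), and edgeR and DESeq2 for 2 each (HOXD3 and HOXA7), against 7.63% and 9.75% of all genes. These member counts are near or below the shares of all genes.

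That gene was HOXD3, a gene of the neck region in the embryo. Its mean was 89.8 ± 33.5 (SD, n = 6) in P cows against 136 ± 32.5 (SD, n = 5) in the NP group. Its log2 fold change, NP over P throughout, was 0.64 (95% interval 0.05 to 1.24, limma unadjusted p = 0.0368, adjusted p = 0.589). HOXA7, named after its values were seen, was 31.1 ± 14.7 in P and 14.2 ± 6.30 in NP cows, with a log2 fold change of -1.02 (-2.10 to 0.06, limma adjusted p = 0.662). Neither value passed the adjusted threshold.

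For the genes of the Müllerian axis the intervals were wide and held 0. HOXA10 had a log2 fold change of -0.04 (95% interval -0.93 to 0.85), HOXA11 of 0.05 (-0.58 to 0.69), HOXA9 of -0.22 (-1.29 to 0.85) and HOXA13 of 0.59 (-0.95 to 2.13). With edgeR and DESeq2 the estimates were -0.28 and -0.29 for HOXA10, -0.63 and -0.64 for HOXA9 and 0.055 and 0.030 for HOXA13, the smallest adjusted p-value being 0.750 (HOXA9, DESeq2). By cluster, the median log2 fold change with limma was -0.15 over 10 HOXA genes, 0.44 over 5 HOXB genes, -0.46 over 3 HOXC genes and 0.13 over 6 HOXD genes, beside 0.0018 over all genes tested. The medians of the count models lay elsewhere, at -0.36 (edgeR) and -0.37 (DESeq2) for HOXA, 0.090 and 0.081 for HOXB, -0.70 and -0.72 for HOXC and 0.058 and 0.046 for HOXD genes.

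Those cluster medians leaned on the 2 cows with the lowest epithelium and highest smooth muscle scores. All 5 HOXB estimates were above 0 with all cows, and all 5 were below 0, with a median of -0.33, without cows P617 and P1541. HOXA10 moved to 0.54 and HOXA11 to 0.45 without them. In these 9 cows 5 of 24 HOX genes (20.8%) had an unadjusted p-value under 0.05, against 11.1% of all genes. Of the 5, HOXA10, HOXA11 and HOXD3 were higher in NP cows, against 7.14% of all genes, and HOXA3 and HOXB4 in P cows, against 4.01%. Again 0 of 24 had an adjusted p-value under 0.1 with limma, the smallest being 0.347 for HOXA11. With all cows the stroma scores of the groups overlapped, since P cows reached 14.21. Without the 2 cows they no longer did, with 12.75 to 13.56 in the P cows and 13.88 to 14.24 in the NP cows. The part of the stroma score in these differences was not tested.

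**Figure D3:**
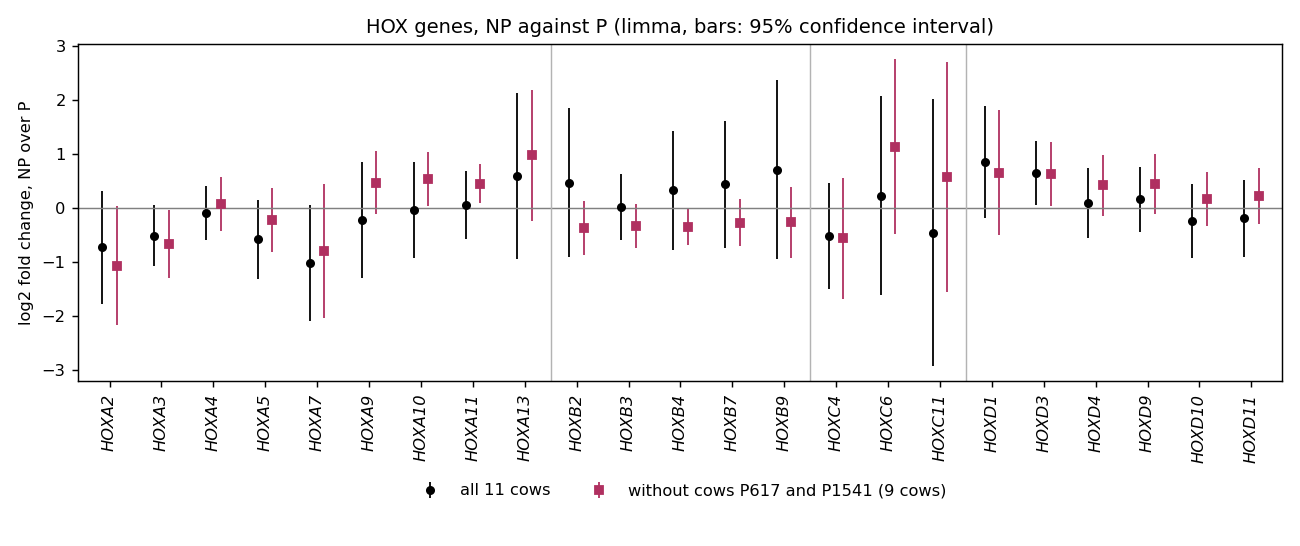
Log2 fold change, NP over P, from limma for 23 of the 24 expressed HOX genes with all 11 cows (black circles) and without cows P617 and P1541 (red squares); bars are 95% confidence intervals. With all cows only the interval of HOXD3 leaves out 0, and the 5 HOXB estimates change sign when the 2 cows are left out.

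The second question was how the HOX genes varied with the tissues in the biopsy. Each gene was fitted with limma on the group and 1 marker score, and the slope is the log2 change per unit of the score within groups. Along the epithelium score, 16 of 24 HOX genes passed the adjusted threshold, against 45.4% of all genes. The HOX genes differed by cluster in direction. All 5 HOXB genes rose with the epithelium score, by 1.19 per unit in HOXB2, 0.44 in HOXB3, 0.98 in HOXB4, 1.01 in HOXB7 and 1.42 in HOXB9, with adjusted p-values up to 0.00666, where 23.7% of all genes were called higher.

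The posterior HOXA and HOXD genes fell with the epithelium score. HOXA9 fell by 0.91 per unit (SE 0.109, limma adjusted p = 1.49e-04), HOXA10 by 0.75 and HOXA11 by 0.53. Their HOXD paralogs fell too, HOXD9 by 0.36, HOXD10 by 0.51 and HOXD11 by 0.53. HOXA5, HOXC6, HOXC11 and HOXD4 were the other genes called lower, where 21.6% of all genes were. HOXA3, HOXA7, HOXA13, HOXD1 and HOXD3 were among those that did not pass. The scores and the HOX values come from the same libraries. Along this score 11 of 13 epithelium markers were called higher, and 8 of 9 smooth muscle and 7 of 9 stroma markers lower, so the scores are not separate axes.

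**Figure D4:**
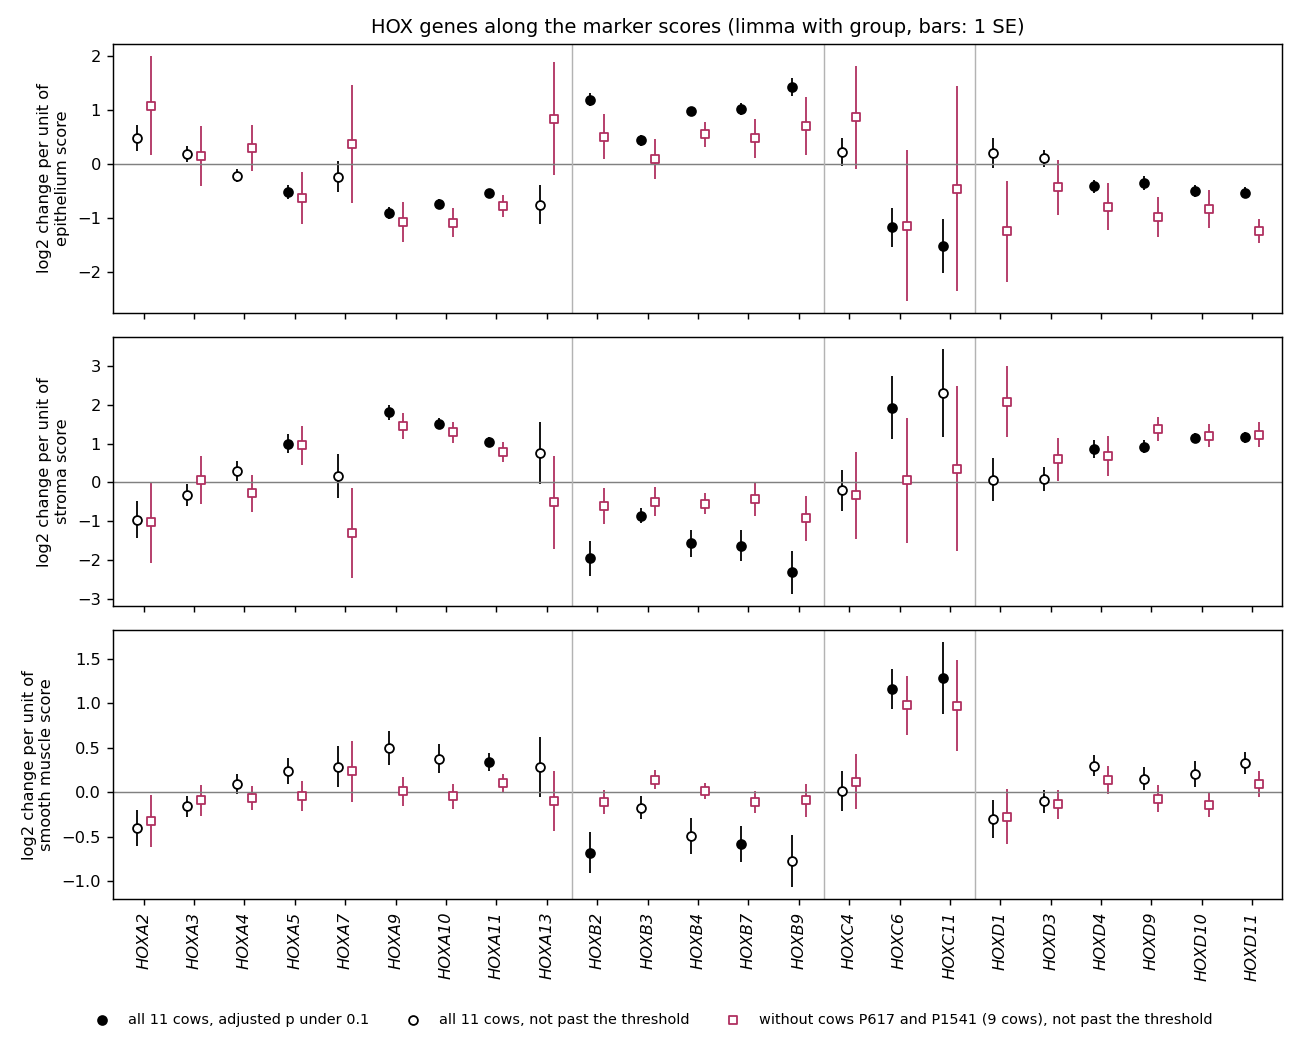
Slope of 23 of the 24 expressed HOX genes along the epithelium (top), stroma (middle) and smooth muscle score (bottom), in log2 units per unit of the score, from limma with the group in the model; bars are 1 SE. Filled circles passed the adjusted threshold with all 11 cows, open circles did not, and red squares are the slopes without cows P617 and P1541. HOXB genes lie above 0 for epithelium and below 0 for stroma, and HOXA9 to HOXA11 and HOXD9 to HOXD11 the reverse.

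Along the stroma score, a fit added after the data were seen, 15 of 24 HOX genes passed, against 40.2% of all genes. HOXA9 rose by 1.81 per unit (SE 0.192, limma adjusted p = 0.00119), HOXA10 by 1.52, HOXA11 by 1.04, HOXD9 by 0.92, HOXD10 by 1.15 and HOXD11 by 1.16. These were called higher with HOXA5, HOXC6 and HOXD4, where 19.3% of all genes were. The 5 HOXB genes fell, by 0.87 (HOXB3) to 2.33 (HOXB9) per unit, where 20.9% of all genes were called lower. Along the smooth muscle score 5 of 24 passed, against 16.4% of all genes: HOXA11 (0.34), HOXC6 (1.16) and HOXC11 (1.28) were higher, where 9.24% of all genes were, and HOXB2 and HOXB7 lower (-0.68 and -0.58), where 7.13% were. This count turned on single cows, with 11 HOX genes called without NP2810 (30.6% of all genes), 8 without NP638 (21.1%) and 1 to 3 without NP856, P1541, P1631, P1753, P2396 or P617 (4.42% to 13.1%), so that the share of all genes called moved with it.

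Much of the number of calls came from P617 and P1541, the 2 cows with the lowest epithelium scores. Without cow P617, 11 of 24 HOX genes were called along epithelium, against 12.5% of all genes: HOXB2, HOXB4, HOXB7 and HOXB9 higher, against 5.81%, and HOXA9, HOXA10, HOXA11, HOXD4, HOXD9, HOXD10 and HOXD11 lower, against 6.64%. Along stroma 11 were then called, against 15.1% of all genes, and along smooth muscle 1, HOXC6, against 4.42%. Without both cows limma called 0 HOX genes and 0% of all genes along epithelium. In those 9 cows 7 of 24 HOX genes (29.2%) had an unadjusted p-value under 0.05 along epithelium, against 6.32% of all genes. Of these 7, HOXA9, HOXA10, HOXA11, HOXD9, HOXD10 and HOXD11 had slopes below 0 (-1.08, -1.09, -0.79, -0.99, -0.84 and -1.25), against 3.59% of all genes, and HOXB4 above 0 (0.55), against 2.73%. In 6 of 6 of these posterior HOXA and HOXD genes the slope was farther from 0 without the 2 cows than with them. These genes were picked by their p-values in the same 9 cows, which favours large slopes, so no conclusion is drawn from this count. The SE of their slopes was 0.20 (HOXA11) to 0.37 (HOXA9). The 5 HOXB slopes were smaller without the 2 cows, with a median of 0.51 in place of 1.01.

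Along stroma the 9 cows gave a like picture. With limma 0 of 24 HOX genes passed, against 0.159% of all genes, and 7 of 24 (29.2%) had an unadjusted p-value under 0.05, against 9.25% of all genes. These were HOXA9 (slope 1.46), HOXA10 (1.30), HOXA11 (0.79), HOXD1 (2.09), HOXD9 (1.38), HOXD10 (1.21) and HOXD11 (1.24), all above 0, as in 5.75% of all genes. The 5 HOXB slopes remained below 0, with a median of -0.55. Along smooth muscle 0 HOX genes passed with limma, against 1.91% of all genes. HOXC6 had a slope of 0.97 (unadjusted p = 0.0148, adjusted p = 0.300) as the only HOX gene with an unadjusted p-value under 0.05, against 9.71% of all genes.

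**Figure D5:**
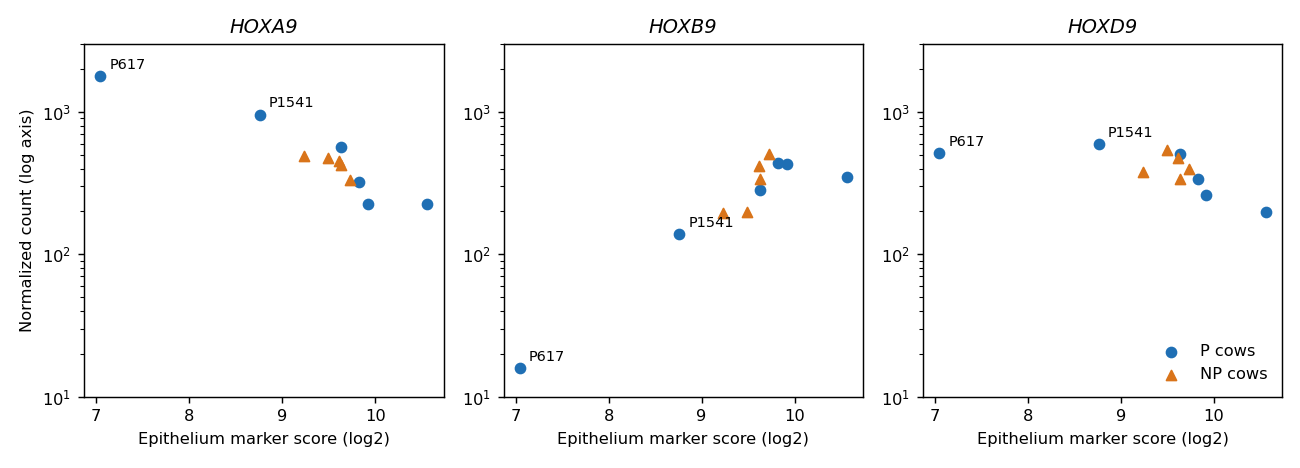
Normalized count (log axis) of the group 9 paralogs HOXA9, HOXB9 and HOXD9 against the epithelium score (log2 scale) in each of 6 P cows (circles) and 5 NP cows (triangles). From cow P1631 at a score of 10.56 to cow P617 at 7.05, HOXA9 goes from 226 to 1777 and HOXB9 from 348 to 15.8.

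Paralogs of 1 group were also set against each other within a cow. This was done after the data were seen, for the 19 pairs of expressed paralogs, as the difference of their log2(normalized count + 1), called the log2 ratio here, and the added 1 narrows the ratios of low genes. A ratio depends on the lengths of both genes, so only its change between cows is read. From the lowest to the highest cow, the ratio spanned 3.55-fold to 202-fold, with a median of 21.6-fold, in the 8 pairs of a HOXB gene with a HOXA or HOXD gene, and a median of 3.49-fold in the 6 pairs of a HOXA with a HOXD gene. The narrowest of the HOXB pairs was HOXA3 to HOXB3, which lay within the range of the HOXA with HOXD pairs, as did HOXB3 to HOXD3 (3.64-fold). HOXA9 to HOXB9 went from -0.93 in P2396 to 6.72 in P617, a 202-fold span, and HOXB9 to HOXD9 spanned 53.7-fold. Of the HOXA with HOXD pairs, those of groups 10 and 11 had the narrowest spans. HOXA10 to HOXD10 lay between 1.93 and 2.69, a 1.70-fold span, and HOXA11 to HOXD11 between 1.43 and 2.12, a 1.61-fold span, while HOXA10 itself spanned 6.07-fold and HOXD11 4.06-fold. HOXA9 to HOXD9 spanned 4.09-fold and HOXA3 to HOXD3 7.03-fold. The wide spans of the HOXB pairs rested on the cows with the lowest epithelium scores. Without cows P617 and P1541 the median was 3.90-fold in the HOXB pairs and 2.23-fold in the HOXA with HOXD pairs, and HOXA9 to HOXB9 spanned 4.81-fold. The median of the pairs with a HOXC gene was then 9.50-fold, wider than that of the HOXB pairs.

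Between P and NP cows, an exact two-sided permutation test on the 462 ways to divide the cows (smallest p-value possible 0.00433) gave an unadjusted p-value under 0.05 for 2 of the 19 pairs. The ratio of HOXA3 to HOXD3 was 1.32 ± 0.69 (SD, n = 6) in P cows against 0.17 ± 0.75 (SD, n = 5) in the NP group, a difference of -1.15 (exact permutation p = 0.026, adjusted p = 0.411). That of HOXA2 to HOXB2 was -3.00 ± 1.03 in P and -4.20 ± 0.73 in NP cows, a difference of -1.21 (exact permutation p = 0.0433, adjusted p = 0.411). Adjusted over the 19 pairs 0 passed 0.1. Without cows P617 and P1541 the difference was -1.30 for HOXA3 to HOXD3 and shrank to -0.70 for HOXA2 to HOXB2. These 9 cows can be divided in 126 ways, so a single pair at the smallest possible p-value of 0.0159 would have an adjusted value of 0.302, and no call is read from them.

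HOX proteins bind DNA with TALE homeodomain cofactors, and their clusters are held silent by polycomb and kept active by trithorax complexes and induced by retinoic acid. These companion genes were counted in the comparison of P and NP cows from lists drawn up from general knowledge. With limma 0 genes of any of these lists passed the adjusted threshold. Of 9 TALE genes 1 had an unadjusted p-value under 0.05 with limma, 1 with edgeR and 2 with DESeq2, against 7.84%, 7.63% and 9.75% of all genes, and the list's median log2 fold change was -0.01. The limma gene was MEIS3, with 360 ± 44.1 in P and 444 ± 54.8 in NP cows and a log2 fold change of 0.30 (adjusted p = 0.564). Of 22 polycomb and trithorax genes tested, 2 had an unadjusted p-value under 0.05 with limma, 0 with edgeR and 2 with DESeq2, which is near or below the same shares of all genes. The limma pair was SUZ12, a core subunit of polycomb complex PRC2 (log2 fold change -0.26, adjusted p = 0.607), and ASH2L, a subunit of the trithorax-type H3K4 methyltransferases (-0.23, adjusted p = 0.589).

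Of the companion lists the retinoic acid genes had the most values at this level, with 6 of 14 tested at an unadjusted p-value under 0.05 with limma, 5 of them higher in NP cows, against 7.84% and 5.49% of all genes. RDH10, which oxidizes retinol to retinal, had 429 ± 250.4 (SD, n = 6) in P cows against 1185 ± 428 (SD, n = 5) in the NP group and a log2 fold change of 1.58 (limma adjusted p = 0.264). ALDH1A2, which makes retinoic acid from retinal, had 122 ± 115 and 344 ± 190 (log2 fold change 1.93). STRA6, the retinol uptake receptor, had 408 ± 414 and 1348 ± 374 (2.58). CRABP1, which binds retinoic acid in the cytoplasm, was lower in NP cows, at 253 ± 64.1 beside 471 ± 161 (-0.87). DESeq2 called RDH10 and CRABP1 (adjusted p = 0.0352 and 0.0562), limma called RDH10 without cow P904 (adjusted p = 0.046), and edgeR called 0 of 14 with 6 at an unadjusted p-value under 0.05. The list's median log2 fold change was 0.32. Beside these values, the stroma score was lower in P cows, and 7 of 8 endothelium, 4 of 8 immune and 3 of 9 stroma markers had an unadjusted p-value under 0.05 with limma, all higher in NP cows. At the same level 2 of 9 smooth muscle and 1 of 4 oviduct and mesothelium markers were higher in P cows. The fits that called RDH10 also called tissue markers. DESeq2 called CDH5 of the endothelium, higher in NP cows, and MSLN of the mesothelium, higher in P cows. Without cow P904 limma called the endothelium markers CDH5, ERG, TEK and TIE1. The part of these tissues in the retinoic acid values was not tested.

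Of 8 Müllerian duct and uterine patterning genes tested, 0 had an unadjusted p-value under 0.05 with limma, edgeR or DESeq2, and the median log2 fold change was 0.45. Of the ParaHox and CDX genes, relatives of the HOX genes or regulators of them, GSX1 was the only one with a mean of at least 5. CDX2, PDX1 and EVX1 had 0 reads in all cows.

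Several cofactors fell along the epithelium score with all cows. In all, 5 of 9 TALE genes were called lower and 1 higher, against 21.6% and 23.7% of all genes. MEIS1 fell by 0.85 per unit (limma adjusted p = 2.42e-04) and MEIS2 by 0.91. EMX2, a homeobox gene of the urogenital tract that HOXA10 is known to repress in the uterus, fell by 0.76, and PAX2 and PAX8, genes of the Müllerian epithelium, rose by 2.25 and 1.22. Of the Müllerian list, 6 of 8 genes tested were called higher and 1 lower along epithelium. These genes were named after their values were seen. Without cows P617 and P1541 all of these calls were lost, as were those of all genes, and 0 of 9 TALE and 0 of 8 Müllerian genes had an unadjusted p-value under 0.05 with limma, against 6.32% of all genes. The slopes were then -0.40 for MEIS1, -1.06 for MEIS2, -0.34 for EMX2, 1.11 for PAX2 and 0.38 for PAX8.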

How the data were processed

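The authors cleaned the paired-end reads (Seqyclean), aligned them by Bowtie2 to the masked UMD3.1 assembly of Bos taurus, counted them per gene with HTSeq and divided the counts by a DESeq2 size factor. The deposited table holds these normalized counts (unit signal) with 1 column per cow. Per the labels and the submitters' processing notes the versions were CASAVA 1.8.2, Bowtie2 2.1.0, HTSeq 0.5.4p2 and DESeq2 1.12.1. The genes carry Ensembl numbers, but the release of the annotation and the use of strand are not given in the sources used here. Reads of neighbouring or antisense transcripts in the dense HOX clusters therefore cannot be told apart. Groups followed the pregnancy status in the sample labels. These give P617 as pregnant, where a supplement of the paper names it non-pregnant.

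In every cow 100% of the values could be turned back into whole reads (tolerance 0.01 of a read). The main test was limma 3.58.1 in R 4.3.3 (lmFit, eBayes with a trend) on log2(value + 1) for 15081 genes (mean of 5 or more), Benjamini-Hochberg at 0.1. Fold changes on this scale are understated for low genes. Alternatives were edgeR 4.0.16 (quasi-likelihood) and DESeq2 1.42.0 (without independent filtering) on the recovered reads, TMM, other filters and pseudocounts, marker scores as covariates and leaving out cows. The scripts were tested on simulated data. Genes were matched by exact symbol. The members and lists were chosen with earlier results of these data known. Values by cow were given for HOXA9, HOXA10, HOXA11 and HOXA13, the 2 members with the highest mean in each cluster (a level per length had been planned, but no lengths were at hand) and members with an unadjusted p-value under 0.05, and of the companion lists up to 5 genes at this level were named. The values of 1 member and of some companion genes are not reported here, though all counts include them. No sequences or coordinates are printed, since the gene reference used is of another assembly.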

Additional observations from a re-analysis of the deposited data

Results flagged for a closer look

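In the P group, 1 value of HOXB9 stood far from the rest on the scale of log2(normalized count + 1). Cow P617 had 15.8 normalized counts and the next lowest P cow, P1541, had 139. On the log2 scale this gap was 0.650 of the whole range of the 6 cows. The 24 expressed genes were examined in both groups, 48 sets of values in all, and chance alone flags about 1 in 20. This cow also had the lowest epithelium score, and the part of that in the value was not tested.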

How the results depend on the processing

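No paired analysis was possible because the cow numbers are not shared between the groups. For P against NP, 0 of 24 HOX genes were called in every alternative run. Over all genes the number called was 0 with limma and edgeR, 201 with DESeq2, 119 with the epithelium score as a covariate, 17 without cows P617 and P1541, and 0 to 171 when each cow was left out, with 171 without P904. Without P904 limma also called 1 companion gene, RDH10, where it called 0 to 1 over all the cows left out. Along smooth muscle the HOX calls were 5 as reported (16.4% of all genes called), 3 with edgeR (14.3%), 3 without the filter (10.7%), 0 without P617 and P1541 (1.91%) and 1 to 11 with each cow left out (4.42% to 30.6%). Along epithelium they were 0 without both cows (0%) and 11 to 17 with each cow left out (12.5% to 48.4%), and along stroma 0 (0.159%) and 11 to 17 (15.1% to 43.1%). Of the 24 P against NP estimates, 12 changed sign with the smooth muscle score, 12 without both cows, 9 without P617, 3 with the epithelium score and 2 each with edgeR and DESeq2. The values follow for the genes whose values by cow are given. With the epithelium score HOXA9 was 0.0083, HOXA10 0.15 and HOXB3 -0.086. With the smooth muscle score HOXA9 was 0.41, HOXA10 0.44, HOXB2 -0.39, HOXB3 -0.20, HOXC11 1.17 and HOXD10 0.012. Without both cows HOXA9 was 0.47, HOXA10 0.54, HOXB2 -0.37, HOXB3 -0.33, HOXC11 0.57 and HOXD10 0.16. HOXA11 was -0.060 with DESeq2 and -0.045 with edgeR, and HOXB3 -0.064 and -0.053. With each cow left out the ranges were -0.28 to 0.24 for HOXA10, -0.093 to 0.25 for HOXA11, -0.45 to 0.15 for HOXA9, -0.10 to 0.72 for HOXB2, -0.17 to 0.18 for HOXB3, -1.11 to 0.32 for HOXC11, -0.22 to 0.79 for HOXC6 and -0.019 to 0.30 for HOXD9. Slopes without both cows changed sign in 8 of 24 genes along smooth muscle, 5 along epithelium and 4 along stroma, and among the same named genes along smooth muscle for HOXA10 (-0.048), HOXA13 (-0.10), HOXB3 (0.14), HOXD9 (-0.075) and HOXD10 (-0.15), along epithelium for HOXA13 (0.84) and HOXD3 (-0.43) and along stroma for HOXA13 (-0.51). With each cow left out HOXA13 ranged from -1.11 to 0.66 along epithelium, -0.19 to 0.47 along smooth muscle and -0.61 to 1.64 along stroma, and HOXD3 from -0.43 to 0.26 along epithelium and -0.17 to 0.54 along stroma. The cause of these changes was not tested. Depth limits HOXA7, HOXA13, HOXC4, HOXC6 and HOXC11, which had 1 to 5 reads in their lowest cows.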
